A study of Mus musculus with 4 samples.

Results

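The genes described here are the D-type cyclins Ccnd1, Ccnd2 and Ccnd3, their kinase partners Cdk4 and Cdk6, the Cdk inhibitors Cdkn1a, Cdkn1b, Cdkn2c and Cdkn2d, and the substrate gene Rb1. They were taken by symbol from a table of 17393 genes, which listed all 10. The material was RNA depleted of ribosomal RNA, and the cells were DS19, a mouse erythroleukemia (MEL) line of transformed erythroid precursors. There were 4 libraries, 2 labelled wild type and 2 labelled Wdr26-/-, numbered 1 and 2 within each genotype. Wdr26 encodes a subunit of the CTLH ubiquitin ligase. The labels name 1.5% dimethyl sulfoxide, an inducer of erythroid differentiation in MEL cells, in the culture text of every library. Whether the inducer was given before RNA was taken is not stated there, nor is how the gene was disrupted or whether the knockout was a single clone. Separate cultures are not named for the libraries of a genotype, so p-values measure the spread between these libraries, which may be technical.

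D-type cyclins are the growth-signal-dependent subunits of the G1 kinases. Bound to Cdk4 or Cdk6 they phosphorylate the retinoblastoma protein, which releases E2F transcription factors and lets the cell enter S phase. Inhibitors of the Ink4 family (p18 from Cdkn2c, p19 from Cdkn2d) bind Cdk4 and Cdk6 themselves, while those of the Cip/Kip family (p21 from Cdkn1a, p27 from Cdkn1b) bind cyclin-Cdk complexes and block Cdk2. Erythroid precursors divide until late in maturation, and their exit from the cycle is coupled to the choice of cyclin, kinase and inhibitor.

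Expression was given as FPKM, fragments per kilobase of transcript and scaled to the fragments of the library, so levels can be set side by side between genes. Depth, estimated from the steps in the lowest values, ranged from about 20100000 to 21300000 fragments per library. Wdr26 RNA in the knockout libraries (9 and 7.84 FPKM) averaged 15.6% of that in the wild-type libraries (55.4 and 52.4 FPKM). All 10 erythroid markers reached a mean of 1 FPKM, with summed levels from 153799 to 208138 FPKM per library. The globin gene Hba-a1 alone averaged 142935 FPKM, so the sum says little about the other markers. Of the markers listed in the table, 4 of 7 for megakaryocytes, 1 of 7 for myeloid cells, 0 of 7 for lymphoid cells and 0 of 2 for fibroblasts reached that mean. The myeloid gene Elane and the lymphoid genes Cd3e and Nkg7 were among those listed at 0. Megakaryocyte markers summed to 250 and 304 FPKM (wild-type libraries 1 and 2) and 275 and 286 FPKM (knockout libraries 1 and 2), 82.9% of it, averaged over libraries, from Itga2b, which erythroid-megakaryocyte precursors also express. In bulk RNA, fewer cells of a type and less RNA per cell cannot be told apart.

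Promoter sequences are shown for Cdk4, Cdk6 and Cdkn1a, 3 of the 4 members that were lower in both libraries numbered 2 than in both numbered 1, as described further on. They are the bases before a RefSeq transcript start in assembly GRCm38.p6, 5′ to 3′ on the plus strand, on which all 3 genes lie. They stop before an annotated exon begins. RefSeq windows of 250 bases were at hand for 7 of the 10 members, not for Ccnd1, Ccnd2 and Rb1. Capitals in Cdk4 and Cdk6 mark the E-box CACGTG, the binding motif of Myc and related factors, which reads the same on both strands. Capitals in Cdkn1a mark a match to the p53 response element, with at most 1 mismatch to the consensus of adjacent half-sites.
Cdk4 (chr10:127063285-127063529): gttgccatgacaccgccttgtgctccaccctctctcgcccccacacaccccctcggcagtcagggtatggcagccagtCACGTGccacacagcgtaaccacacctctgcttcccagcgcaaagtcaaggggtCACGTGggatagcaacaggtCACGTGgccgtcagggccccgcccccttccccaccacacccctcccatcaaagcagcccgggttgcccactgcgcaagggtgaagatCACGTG
Cdk6 (chr5:3343643-3343722): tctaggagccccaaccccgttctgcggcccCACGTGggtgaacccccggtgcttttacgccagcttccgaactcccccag
Cdkn1a (chr17:29090729-29090973): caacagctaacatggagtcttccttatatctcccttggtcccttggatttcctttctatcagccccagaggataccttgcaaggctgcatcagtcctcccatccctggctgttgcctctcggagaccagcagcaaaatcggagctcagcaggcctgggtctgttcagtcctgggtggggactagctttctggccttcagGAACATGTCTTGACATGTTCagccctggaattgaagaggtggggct

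The Cdk4 promoter held 4 E-boxes, starting 172, 118, 98 and 11 bases before the transcript start. Of 32851 RefSeq promoter windows of the same length, 6.02% held at least 1 E-box and 0.0213% held 4 or more. The motifs were chosen after the sequences had been seen, and the cut of 4 is the Cdk4 count, so the shares are descriptions. The Cdk6 window held 1, starting 220 bases before the transcript start that the window was taken from. That start lies inside the annotated span of Cdk6, which begins at 3341004. The p53 element lay 51 to 32 bases before the upstream start of Cdkn1a, and 0.0761% of all windows held such a match. Cdkn1a has a second window further downstream, without the element, and the deposited value sums transcripts from both starts. None of the members' windows held the E2F site TTTCGCGC or TTTGGCGC on either strand, which 0.654% of all windows held, or the GATA site AGATAA or TGATAA, which 16.6% held. These matches are letters in the reference genome, and binding was not measured.

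The level of the G1 genes in MEL cells was dominated by cyclin D3 and Cdk4. By mean FPKM over the 4 libraries, Ccnd3 came first (437 FPKM, above 99.1% of the genes in the table), followed by Cdk4 (141), Ccnd2 (82.6), Cdkn2d (75.1), Cdkn2c (33.8), Rb1 (32.3), Cdkn1b (27.8), Cdkn1a (14.2), Cdk6 (5.21) and Ccnd1 (0.598). Ccnd2 and Cdkn2d overlapped in their ranges over the libraries, as did Cdkn2c and Rb1, and Rb1 and Cdkn1b. The other neighbours in this order did not overlap. These levels are shown library by library in the plot of levels.

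**Figure D1:**
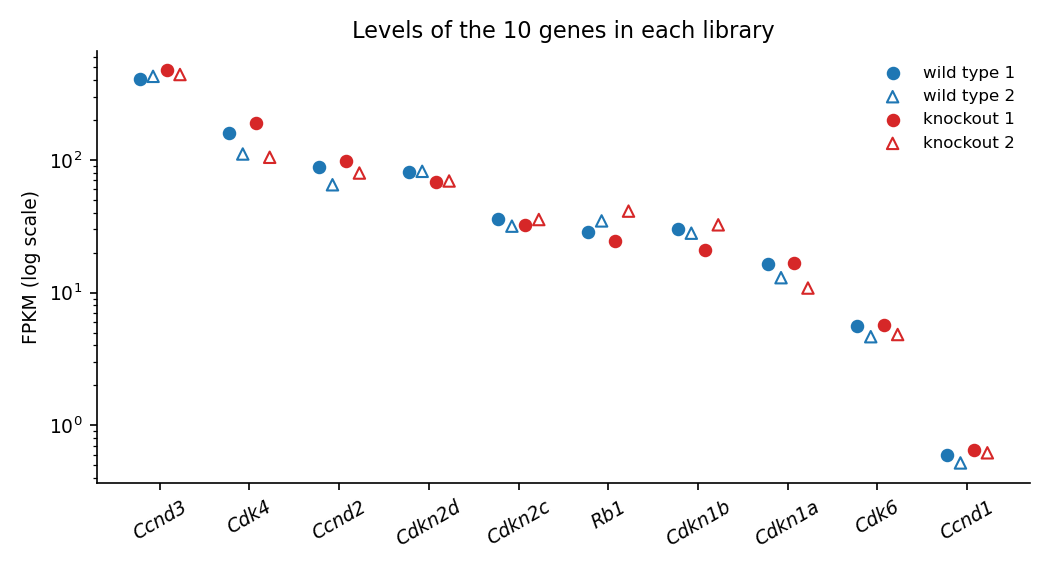
FPKM of the 10 genes (log axis) in wild type (blue) and knockout (red), with filled circles for the libraries numbered 1 and open triangles for those numbered 2. Ccnd3 sits between 409 and 473 FPKM in every library and Ccnd1 between 0.52 and 0.65 FPKM, while Cdk4 separates by library number rather than by genotype.

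Between genotypes no member passed the test. Of the 9 members tested (at least 1 FPKM in at least 2 libraries), 0 passed limma at a Benjamini-Hochberg adjusted p of 0.05 and 0 at an unadjusted p of 0.05. Under the alternative settings at most 2 members passed the unadjusted threshold and none the adjusted one. Among all 10670 genes tested, 0.0937% passed the adjusted threshold (0.0469% higher and 0.0469% lower in the knockout) and 11.4% the unadjusted threshold. The groups did not overlap for Ccnd3, higher in both knockout libraries (1 of 9 members, against 29.9% of all genes tested), and for Cdkn2d, lower in both (1 of 9, against 10.8%). With median-centred values 0 of 9 members were higher in both knockout libraries, against 19.9% of all genes, and Cdkn2d alone was lower in both, against 20.1%. Within each library number the knockout was higher for Ccnd2, Ccnd3 and Cdk6 (3 of 9, against 45.1%) and lower for Cdkn2d (1 of 9, against 22.2%). With median-centred values it was higher within each number for Ccnd2 (1 of 9, against 33%) and lower for Cdk6, Cdkn1a and Cdkn2d (3 of 9, against 34.4%). The median log2 change, knockout minus wild type on the log2(FPKM + 1) scale, was 0.014 over the 9 members and 0.067 over all genes tested.

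Among the D-type cyclins, Ccnd3 (gene ID 12445, chromosome 17, 47505051 to 47599689, plus strand) encodes cyclin D3, known in erythroid precursors for setting the number of divisions before exit from the cycle. It stood at 409 and 427 FPKM in wild-type libraries 1 and 2 and at 473 and 440.3 FPKM in knockout libraries 1 and 2. Both knockout libraries lay above both wild-type libraries, but the gap between wild-type library 2 and knockout library 2 was smaller than that between the knockout libraries. The means were 418 ± 12.6 and 457 ± 23.2 FPKM (SD, n = 2), a log2 change of 0.13 (SE 0.14, 95% interval −0.21 to 0.46, limma adjusted p = 0.822). With median-centred values the genotypes overlapped for Ccnd3. The value sums 3 RefSeq transcripts from more than 1 start, which cannot be told apart here.

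Ccnd2 (gene ID 12444, chromosome 6, 127125162 to 127152188, minus strand) encodes cyclin D2, which growth factor signals induce in many blood cells. It stood at 88.3 and 65.0 FPKM (wild-type libraries 1 and 2) and 97.4 and 79.7 FPKM (knockout libraries 1 and 2). Each knockout library was above the wild-type library of its number, yet wild-type library 1 exceeded knockout library 2, so the genotypes overlapped. The log2 change of 0.21 was the largest positive change among the members (SE 0.19, 95% interval −0.26 to 0.69, limma adjusted p = 0.771). Leaving out wild-type library 2 brought it to −0.0043, and leaving out wild-type library 1 to 0.43.

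Ccnd1 (gene ID 12443, chromosome 7, 144929931 to 144939831, minus strand), the cyclin D1 gene of many epithelial and mesenchymal cells, was nearly silent. Its values were 0.6 and 0.52 FPKM (wild-type libraries 1 and 2) and 0.65 and 0.62 FPKM (knockout libraries 1 and 2), or an estimated 40.9 to 49.6 fragments per library. It did not reach the filter and is not among the 9 members tested. In FPKM both knockout libraries lay above both wild-type libraries, as they did for 29.9% of all genes tested. The estimated fragments, not scaled to depth, overlapped, with 46.05 in wild-type library 1 and 45.98 in knockout library 2. Without the filter the log2 change was 0.068 (limma adjusted p = 0.775). Its exons share 1100 bases with Oraov1 on the opposite strand, which stood between 8.89 and 11.9 FPKM, and the sources used here do not say whether counting used strand. The share of the Ccnd1 value that came from Oraov1 was not tested.

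In sum the D-type cyclins came to 498 and 492 FPKM (wild-type libraries 1 and 2) and 571 and 521 FPKM (knockout libraries 1 and 2). Cyclin D3 made up 82.1% and 86.7% of that sum in wild type and 82.8% and 84.6% in knockout. Nearly all of the remainder was cyclin D2. The sum was higher in both knockout libraries, at means of 495 ± 3.97 and 546 ± 35.8 FPKM (SD, n = 2). Of all genes tested, 29.9% were higher in both knockout libraries, and with median-centred values Ccnd3 overlapped between genotypes. The shares of the cyclins in the sum overlapped between genotypes. Knockout stood at 110.3% of wild type for this sum, and at 106% with globin genes left out and the rest rescaled. The cyclin D3 share was higher in both libraries numbered 2 than in both numbered 1.

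Of the kinases, Cdk4 (gene ID 12567, chromosome 10, 127063535 to 127067288, plus strand) was the main form. It stood at 159 and 111 FPKM (wild-type libraries 1 and 2) and 189.5 and 105 FPKM (knockout libraries 1 and 2). Both extremes were knockout libraries, and the wild-type libraries lay between them. The log2 change was 0.085 (SE 0.31, 95% interval −0.67 to 0.84, limma adjusted p = 0.957), the widest interval among the members. It turned negative when wild-type library 2 (−0.17) or knockout library 1 (−0.34) was left out. Cdk4 exons share 641 bases with Tspan31, a tetraspanin gene on the opposite strand, which stood at 90.8 and 82.2 FPKM (wild-type libraries 1 and 2) and 124 and 109.7 FPKM (knockout libraries 1 and 2). Both knockout libraries were above both wild-type libraries for Tspan31, and its part in the Cdk4 value was not tested.

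Cdk6 (gene ID 12571, chromosome 5, 3341004 to 3531008, plus strand), the alternative partner of the D-type cyclins, whose decline accompanies terminal differentiation of MEL cells, was low. It stood at 5.64 and 4.65 FPKM (wild-type libraries 1 and 2) and 5.74 and 4.83 FPKM (knockout libraries 1 and 2). The genotypes overlapped, and the log2 change was 0.033 (SE 0.17, 95% interval −0.37 to 0.44, limma adjusted p = 0.971). The value includes a transcript assembled from the reads beside the RefSeq transcript. Cdk6 made up 3.43% and 4.03% of the summed Cdk4 and Cdk6 level in wild type and 2.94% and 4.41% in knockout, so the ratio of Cdk4 to Cdk6 ran from 21.7 to 33.0.

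Cdkn2d (gene ID 12581, chromosome 9, 21288459 to 21291421, minus strand), which encodes p19Ink4d, an inhibitor that rises as blood cells mature, was the member that separated the genotypes most evenly. It stood at 80.7 and 82.1 FPKM (wild-type libraries 1 and 2) and 68.3 and 69.4 FPKM (knockout libraries 1 and 2). The knockout level was 0.847 times wild type among the libraries numbered 1 and 0.846 times among those numbered 2. Means were 81.4 ± 0.948 and 68.9 ± 0.735 FPKM (SD, n = 2), a log2 change of −0.24 (SE 0.12, 95% interval −0.54 to 0.062, limma adjusted p = 0.555). Of all genes tested, 8.64% had a log2 change at least as low. Cdkn2d was also lower in both knockout libraries with median-centred values, where the log2 change was −0.31. The gap between the genotypes was larger than the spread within them, but limma draws each gene's variance toward that of other genes at its level, and Cdkn2d did not pass.

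Cdkn2c (gene ID 12580, chromosome 4, 109660876 to 109666756, minus strand), which encodes p18Ink4c, was near level. It stood at 35.6 and 31.7 FPKM (wild-type libraries 1 and 2) and 32.4 and 35.5 FPKM (knockout libraries 1 and 2). The genotypes overlapped, and the knockout was lower among the libraries numbered 1 and higher among those numbered 2 (log2 change 0.014, SE 0.14, 95% interval −0.32 to 0.35, limma adjusted p = 0.987). Cdkn2c and Cdkn2d together summed to 116 and 114 FPKM (wild-type libraries 1 and 2) and 101 and 105 FPKM (knockout libraries 1 and 2), lower in both knockout libraries. Adding the other genes of the Ink4 family, Cdkn2a and Cdkn2b, turned the direction, with 221 and 231 FPKM in wild type against 245.4 and 242 FPKM in knockout. The Cdkn2a value also covers transcripts for p19Arf, which is no Cdk inhibitor. Cdkn2d supplied 69.4% and 72.1% of the sum with Cdkn2c in wild type and 67.8% and 66.1% in knockout.

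Of the Cip/Kip genes, Cdkn1b (gene ID 12576, chromosome 6, 134920401 to 134925525, plus strand), the p27 gene, stood at 30.1 and 28.04 FPKM (wild-type libraries 1 and 2) and 20.8 and 32.4 FPKM (knockout libraries 1 and 2). The lowest and the highest value were both knockout libraries. The log2 difference, knockout minus wild type, was −0.51 between the libraries numbered 1 and 0.20 between those numbered 2, with a change in the fit of −0.16 (SE 0.22, 95% interval −0.68 to 0.37, limma adjusted p = 0.873). Without knockout library 1 it was 0.15. The value includes an assembled transcript, and p27 is controlled largely through the stability of the protein, which RNA does not show.

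Cdkn1a (gene ID 12575, chromosome 17, 29090979 to 29100722, plus strand), the p21 gene and a classical target of p53, stood at 16.3 and 12.9 FPKM (wild-type libraries 1 and 2) and 16.6 and 10.8 FPKM (knockout libraries 1 and 2). The genotypes overlapped (log2 change −0.11, SE 0.23, 95% interval −0.66 to 0.44, limma adjusted p = 0.917). It turned positive when wild-type library 1 (0.049) or knockout library 2 (0.18) was left out. The Cip/Kip pair summed to 46.4 and 41.0 FPKM (wild-type libraries 1 and 2) and 37.4 and 43.2 FPKM (knockout libraries 1 and 2), also overlapping.

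Rb1 (gene ID 19645, chromosome 14, 73192858 to 73325951, minus strand) encodes the retinoblastoma protein. It stood at 28.7 and 34.7 FPKM (wild-type libraries 1 and 2) and 24.6 and 41.1 FPKM (knockout libraries 1 and 2). As for Cdk4 and Cdkn1b, both extremes were knockout libraries. The log2 change was 0.011 (SE 0.25, 95% interval −0.60 to 0.62, limma adjusted p = 0.993), and it turned negative when wild-type library 1 (−0.12) or knockout library 2 (−0.35) was left out. Rb1 exons share 488 bases with Rcbtb2 on the opposite strand, which did not exceed 3.74 FPKM.

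**Figure D2:**
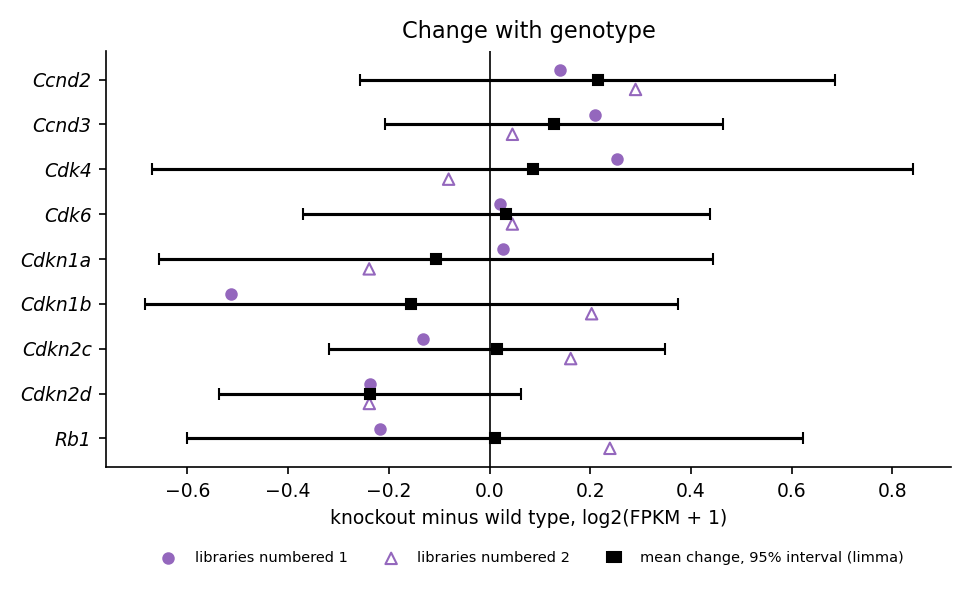
Knockout minus wild type on the log2(FPKM + 1) scale for the 9 tested members, as the fitted change with its 95% interval (black) and as the difference between libraries of the same number (violet). Every interval includes 0, Cdkn2d has nearly the same difference in both pairs, and Cdkn1b, Rb1, Cdk4, Cdkn1a and Cdkn2c have pairs on opposite sides of 0.

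The intervals bound what these libraries can show. For Cdkn2d the fitted ratio of knockout to wild type, from FPKM + 1, lay between 0.689 and 1.04 and for Ccnd3 between 0.866 and 1.38. For Cdk4 the interval from 0.629 to 1.79 leaves sizeable changes in either direction possible. Values of this kind do not show that the genotypes were alike.

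**Figure D3:**
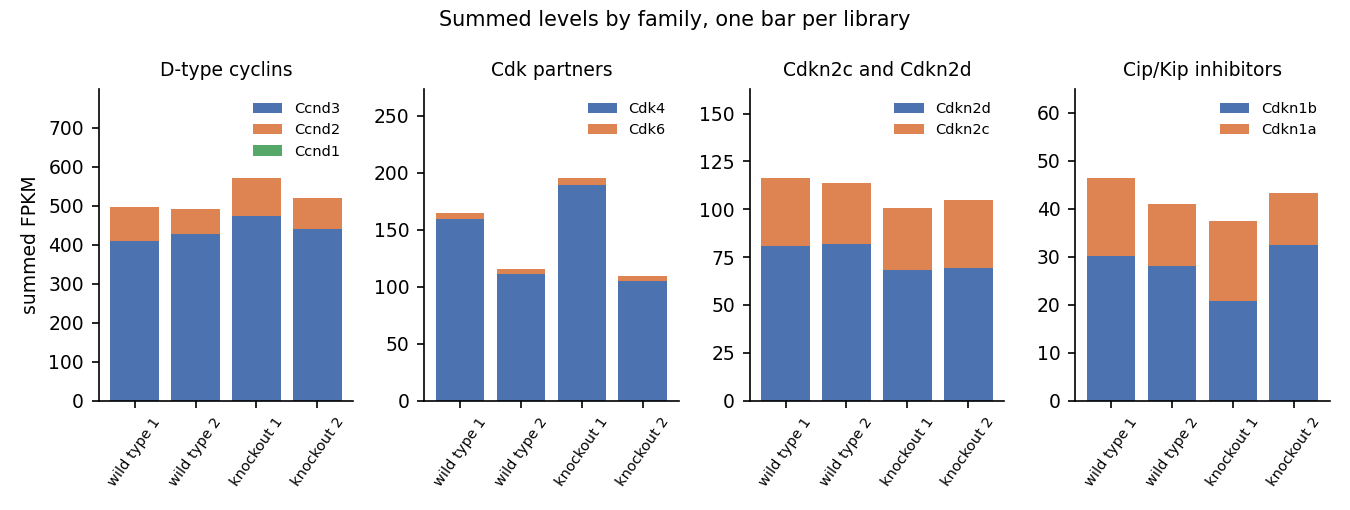
Summed FPKM of the D-type cyclins, the kinases, Cdkn2c with Cdkn2d, and the Cip/Kip inhibitors, one stacked bar per library, each panel on its own axis from 0. The cyclin sum is higher in both knockout libraries (571 and 521 against 498 and 492 FPKM), as are 29.9% of all genes tested. The Cdkn2c and Cdkn2d sum is lower in both (101 and 105 against 116 and 114 FPKM), as are 10.8% of all genes tested. It turns direction when Cdkn2a and Cdkn2b are added. The kinase sum follows the library number.

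The larger differences among these genes ran along the library number. Both libraries numbered 2 were below both numbered 1 for Ccnd2, Cdk4, Cdk6 and Cdkn1a (4 of 9 members tested, against 33% of all genes tested). Both were above for Rb1 (1 of 9, against 12.5%). Without centring these shares are near the background, and 9 members are too few to say whether the direction is particular to them. The same 4 genes were lower with median-centred values, where the background was 22.7%, and Cdkn1b joined Rb1 among the higher ones (2 of 9, against 24.5%). Within each genotype library 2 was higher than library 1 for Cdkn2d and Rb1 (2 of 9, against 24%) and lower for Ccnd2, Cdk4, Cdk6 and Cdkn1a (4 of 9, against 46.5%). Median-centred, it was higher for Cdkn1b, Cdkn2d and Rb1 (3 of 9, against 38.7%) and lower for the same 4 genes (4 of 9, against 33.8%). The labels do not say what the number stands for. With 1 library per genotype and number, whether a difference between numbers itself differed between genotypes could not be tested.

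Cdk4 had the largest such difference. Library 2 stood at 69.7% of library 1 in wild type and at 55.2% in knockout. On the log2 scale library 2 minus library 1 was −0.52 and −0.85, and 2.27% of all genes tested had a mean difference as low or lower. Tspan31, the overlapping gene, was at 82.2 against 90.8 FPKM in wild type and at 109.7 against 124 FPKM in knockout, also lower in library 2 of each genotype.

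Cdkn1a was at 79.5% of library 1 in wild-type library 2 and at 65.1% in knockout library 2, and 8.14% of all genes tested were as low or lower in the mean. Ccnd2 was at 73.6% and 81.8% (12.9% of genes as low or lower). Cdk6 was at 82.4% and 84.1% (25.9%). Rb1 was higher in libraries 2, at 1.21 times library 1 in wild type and 1.67 times in knockout, and 2.16% of all genes tested had a mean difference as high or higher. The kinase gene that phosphorylates the retinoblastoma protein and the gene of that protein thus differed in opposite directions between the numbers.

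Cdkn1b differed between numbers in the knockout (1.56 times library 1) and little in wild type (0.932 times). Ccnd3, Cdkn2c and Cdkn2d stayed between 0.889 and 1.096 times library 1 in both genotypes. The proportions of the families differed with Cdk4. The summed D-type cyclin level was 3.02 and 2.92 times the summed Cdk4 and Cdk6 level in libraries 1 of wild type and knockout, and 4.26 and 4.75 times in libraries 2. Cdkn1a, Cdkn1b, Cdkn2c and Cdkn2d together were 0.988 and 0.707 times the kinase level in libraries 1 and 1.34 and 1.35 times in libraries 2. Both ratios overlapped between genotypes and did not overlap between numbers.

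Globin genes took 28.5% and 25.3% of the summed FPKM in libraries 1 of wild type and knockout and 32.9% and 29.0% in libraries 2. The share was higher in library 2 of each genotype and lower in the knockout of each number. With globin genes left out and the rest rescaled, the log2 change of Cdkn2d between genotypes was −0.30. Over all genes tested, the median of library 2 minus library 1 was −0.065 on the log2 scale. The differences of Cdk4, Cdkn1a, Ccnd2 and Rb1 were several times that size, and the part of globin in them was not tested.

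**Figure D4:**
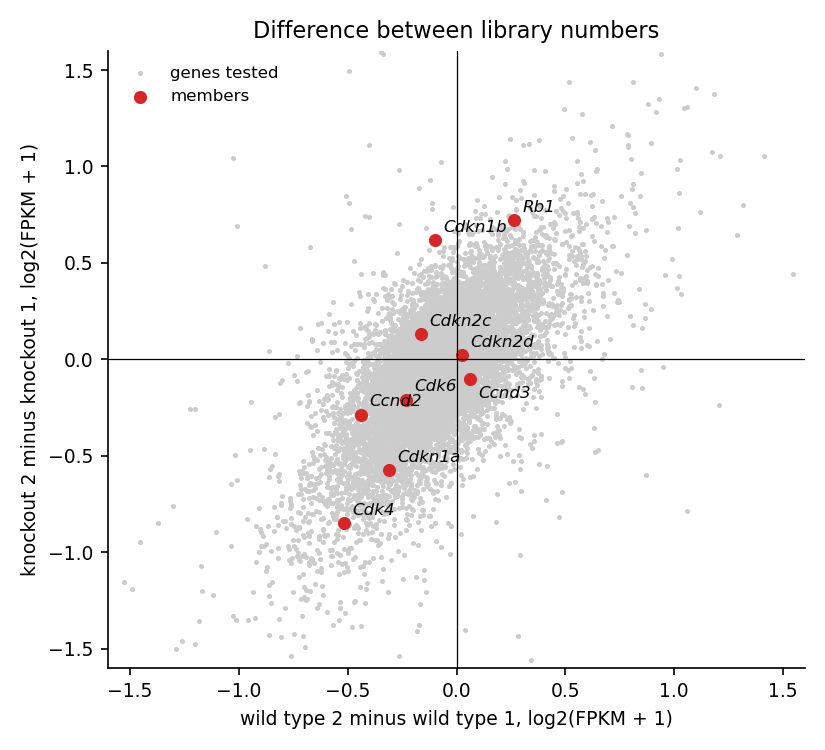
Library 2 minus library 1 on the log2(FPKM + 1) scale in wild type (x axis) and knockout (y axis), with members in red and all genes tested in grey (10644 of 10670 fall within the axes). Cdk4, Cdkn1a, Ccnd2 and Cdk6 lie in the lower left, Rb1 in the upper right, and the grey cloud is stretched along the same diagonal.

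Other genes of the G1 and S phase pathway were taken from 7 lists with 69 tested genes, of which 0 passed limma at an adjusted p of 0.05 and 4 (Ccna2, Cdkn2a, Fbxo31 and Sesn2) at an unadjusted p of 0.05 (5.8%, against 11.4% of all genes tested). In the Rb family and E2F list, 0 of 12 passed, with a median log2 change between genotypes of −0.059. E2f4, a mainly repressive E2F, averaged 47.1 ± 5.15 FPKM (wild type) and 49.0 ± 12.5 FPKM (knockout), with SD over 2 libraries, and Tfdp1, the dimerization partner of E2F factors, 33.0 ± 11.4 and 35.045 ± 11.7 FPKM. Between numbers, 9 of these 12 genes were lower and 1 higher in both libraries 2, against 33% and 12.5% of all genes tested.

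Cyclins E and A, Cdk2 and their activators had 0 of 8 past the test, with a median of 0.067, equal to that of all genes. Ccna2, the S and G2 phase cyclin A2 gene, averaged 46.1 ± 4.05 FPKM (wild type) and 35.02 ± 3.38 FPKM (knockout) (log2 change −0.39, limma adjusted p = 0.395), lower in both knockout libraries. Ccne1, the cyclin E1 gene, averaged 32.0 ± 6.10 and 35.9 ± 6.86 FPKM. In both libraries 2, 4 of the 8 genes were lower and 0 higher (33% and 12.5% of all genes tested). Cyclin E1 and its kinase act after the D-type kinases in G1.

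Among other Cdk inhibitors 0 of 4 passed. Cdkn2a, whose locus encodes both the Ink4 inhibitor p16 and the p53 activator p19Arf, stood at 93.4 and 105 FPKM (wild-type libraries 1 and 2) and 132 and 124 FPKM (knockout libraries 1 and 2) (log2 change 0.37, limma adjusted p = 0.395). It was thus more abundant than Cdkn2d in every library and higher in both knockout libraries. The gene-level value does not separate the products. Cdkn3, a Cdk phosphatase gene, averaged 15.8 ± 2.52 and 12.3 ± 2.14 FPKM. Of the 4 genes, 1 was lower and 0 were higher in both libraries 2 (33% and 12.5% of all genes tested).

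The list for turnover of D cyclins, p21 and p27 had 0 of 15 past the test and a median of −0.046. Its most abundant genes were Ddb1, an adaptor of Cul4 ligases, at 134 ± 0.594 and 136 ± 7.15 FPKM, and Cks1b, a cofactor of the p27 ligase, at 73.9 ± 13.7 and 66.0 ± 23.9 FPKM. Fbxo31, a cyclin D1 ligase receptor named after its values were seen, was at 7.1 and 8.34 FPKM (wild-type libraries 1 and 2) and 9.98 and 10.9 FPKM (knockout libraries 1 and 2) (limma adjusted p = 0.401). Between numbers, 8 of the 15 were lower and 0 higher in both libraries 2 (33% and 12.5% of all genes tested).

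S phase genes regulated by E2F showed the number most plainly. All 14 were lower in both libraries numbered 2 than in both numbered 1 (against 33% of all genes tested), with a median of −0.92 on the log2 scale. Between genotypes 0 of 14 passed (median −0.20), and 0 were higher or lower in both knockout libraries, against 29.9% and 10.8% of all genes tested. Mcm6, a subunit of the replicative helicase, stood at 48.4 and 25.9 FPKM (wild-type libraries 1 and 2) and 41.8 and 21.1 FPKM (knockout libraries 1 and 2). Pcna, the sliding clamp of replication and the most abundant gene of this list, averaged 94.7 ± 31.3 and 77.2 ± 39.1 FPKM. The list was drawn up with the difference between numbers already known, so its count is a description. In the DREAM complex list 0 of 6 passed (median −0.0072), and 5 of 6 were lower and 0 higher in both libraries 2 (33% and 12.5% of all genes tested). Its most abundant genes were Rbbp4, a histone-binding subunit, at 33.3 ± 4.69 and 36.2 ± 6.34 FPKM, and Lin37, a core subunit, at 32.7 ± 0.778 and 34.0 ± 2.03 FPKM.

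In the list of p53 and its targets, 0 of 10 passed, with a median of 0.037. Between numbers 2 of 10 were lower and 3 higher in both libraries 2 (33% and 12.5% of all genes tested), with a median of −0.0087. Trp53 itself averaged 225 ± 1.32 FPKM (wild type) and 261 ± 18.1 FPKM (knockout), and the antiproliferative gene Btg2 237 ± 45.7 and 216 ± 60.0 FPKM. Sesn2, a stress-induced regulator of mTOR signalling named after its values were seen, stood at 17.1 and 17.3 FPKM (wild-type libraries 1 and 2) and 31.9 and 34.1 FPKM (knockout libraries 1 and 2). Its log2 change of 0.90 was the largest in the lists (limma adjusted p = 0.101), whereas Cdkn1a, in the same class of p53 targets, overlapped between genotypes.

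**Figure D5:**
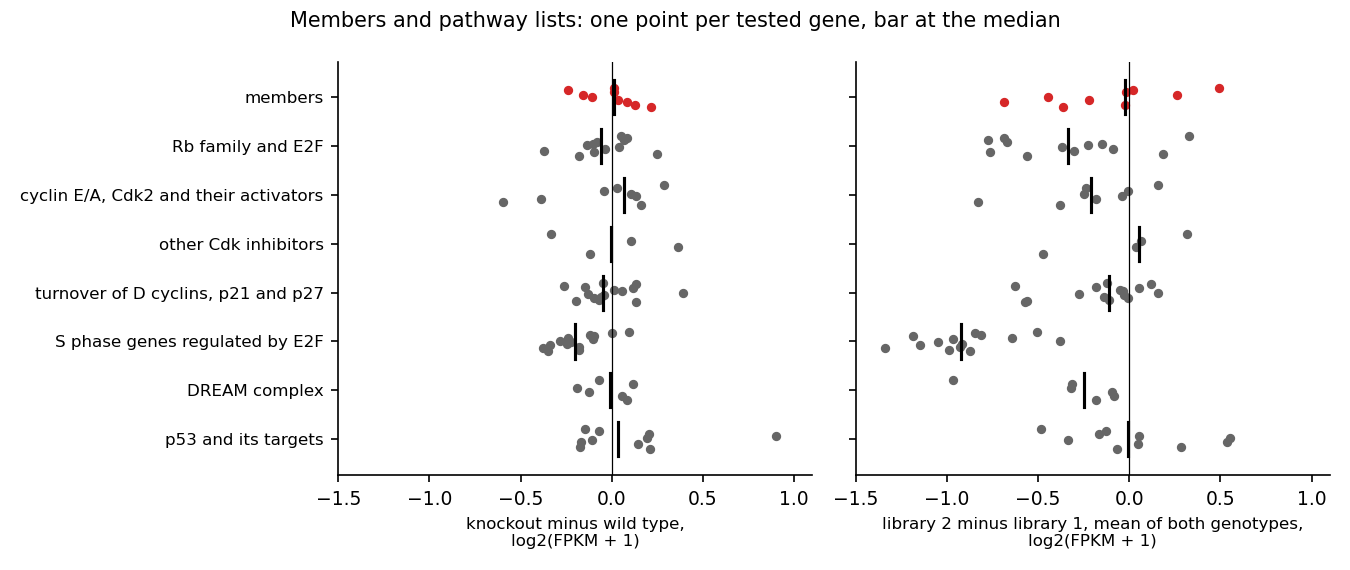
Each point is 1 tested gene, with a bar at the median of its list, for knockout minus wild type (left) and for library 2 minus library 1 averaged over genotypes (right), both on the log2(FPKM + 1) scale. Between genotypes the medians lie from −0.20 to 0.067, and between numbers the S phase list has its median at −0.92 while the members spread from −0.68 (Cdk4) to 0.49 (Rb1).

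Profiles over the 4 libraries were compared by the Euclidean distance between values centred on each gene's own mean, among 10670 genes. The scale was log2(FPKM + 1), which understates changes of low genes. The genes nearest to Ccnd2 were Naif1 (distance 0.033), Tor3a (0.037) and Zfhx2 (0.041). Naif1, for example, stood at 2.8 and 1.85 FPKM (wild-type libraries 1 and 2) and 3.12 and 2.46 FPKM (knockout libraries 1 and 2). The genes nearest to Cdkn2d were Fgfbp3 (0.020), the hyaluronan receptor gene Hmmr (0.023) and the chromatin remodeller gene Smarca5 (0.025). Fgfbp3 was low, at 1.33 and 1.35 FPKM (wild-type libraries 1 and 2) and 0.94 and 0.98 FPKM (knockout libraries 1 and 2). Smarca5 stood at 34.96 and 35.9 FPKM (wild-type libraries 1 and 2) and 29.3 and 29.5 FPKM (knockout libraries 1 and 2). Its even separation of the genotypes follows from the choice by distance and is no separate support for that of Cdkn2d.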

How the data were processed

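The authors deposited 1 table with a value per gene for each of the 4 libraries. Its header names no unit, and the deposited values were identified as FPKM because, multiplied by transcript length, they summed to between 1.02e+09 and 1.04e+09 in each library. The submitters' processing notes name TopHat2 and mm10 with no version or role. Which program computed FPKM, and whether it used strand, is not given. Depth was estimated from the step worth 1 fragment in low values of single-transcript genes. The estimate assumes an effective length 50 bases shorter than the transcript, the best fit of the lengths tried, and is approximate, so no counting interval was computed. Date-like symbols (24) were restored through gene IDs, and 16316 IDs matched the RefSeq gene table of GRCm38.p6. Overlaps of exons were read from GENCODE M21.

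Values were converted to log2(FPKM + 1), which understates changes of low genes, and limma 3.58.1 (R 4.3.3) was fitted to the 10670 genes that reached 1 FPKM in 2 or more libraries (eBayes with trend, no covariate, Benjamini-Hochberg adjustment over all of them). The 95% intervals come from that fit. No permutation test was run, since so few libraries cannot reach the threshold in one. Comparisons by library number are descriptions. Alternatives were median centring, quantile normalization, other filters and pseudocounts, no trend, globin genes left out, a block for library number and each library left out. The procedure was tested on simulated data with independent noise for each gene and library. Those data held no shared difference between library numbers, so the test does not cover that feature of these libraries. The members and lists were chosen with earlier results of these data known. Genes named from the lists were those past the threshold, filled up to 2 with the most abundant. Nearest profiles were taken for the members with the largest rise and fall. The promoter motifs were chosen after the sequences had been seen.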

Additional observations from a re-analysis of the deposited data

How the results depend on the processing

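No member passed the threshold under any alternative, and the smallest adjusted p was 0.104, for Cdkn2d with the library number as a replicate block. At an unadjusted limma p of 0.05, 0 members passed in the comparison as reported. For the alternatives, members past this threshold are named here only where all 4 libraries were kept. With that block 2 passed (Ccnd2 and Cdkn2d), as did 3072 of all 10670 genes tested. Without the filter 1 passed (Cdkn2d), as did 1692 of all 16319 genes then tested. Of 108 alternative values of tested members, 87 kept the direction and 21 reversed it. With median-centred values, quantile normalization and globin genes left out and rescaled, in that order, the log2 change was −0.043, −0.060 and −0.016 for Cdk6, −0.063, −0.051 and −0.043 for Cdkn2c and −0.066, −0.056 and −0.046 for Rb1. Leaving out 1 library at a time gave −0.0043 (without wild-type library 2) to 0.43 for Ccnd2, −0.34 (without knockout library 1) to 0.51 for Cdk4, −0.083 (without wild-type library 2) to 0.15 for Cdk6, −0.39 to 0.18 (without knockout library 2) for Cdkn1a, −0.46 to 0.15 (without knockout library 1) for Cdkn1b, −0.068 (without wild-type library 2) to 0.097 for Cdkn2c and −0.35 (without knockout library 2) to 0.37 for Rb1. Cdkn2d ran from −0.25 to −0.23 and Ccnd3 from 0.076 to 0.18. In these fits the lone library is assumed to vary like the others.

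Over all genes, 10 passed, against 0 without the filter (1692 at an unadjusted p of 0.05), 2 with a mean of at least 5 FPKM, 21 with globin genes left out and rescaled, and between 0 (without either wild-type library, 574 at an unadjusted p of 0.05) and 720 (without knockout library 1) with 1 library left out. With the replicate block 1863 passed. The library numbers come from the titles, and nothing says that they mark shared cultures. Across the genes tested, library 2 minus library 1 in wild type correlated with that in knockout at 0.61. The sum of Cdkn2c and Cdkn2d in knockout was 89.4% of wild type, 85.9% with globin genes left out and rescaled, and, in an alternative added after the data were seen, 108% with Cdkn2a and Cdkn2b added. For the D-type cyclin sum, knockout was 110.3% of wild type and 106% with globin genes left out and rescaled. Counts with median-centred values, added after the data were seen, gave 0 members (1 without centring) higher throughout the knockout and 2 (1 without centring) higher throughout the libraries numbered 2. The cause of these shifts was not tested. Depth limits Ccnd1, the member at the lowest level.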
